A study of Bos taurus
Mus musculus and Bos taurus and Mus musculus with 5 samples.

Results

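The genes described here are 48 bovine genes that had almost no reads in unfused fibroblasts and had reads at every time after these fibroblasts were fused with mouse embryonic stem cells. They were chosen from 13922 bovine gene names by read counts alone: at most 3 reads in the fibroblast control, 0 reads listed as bovine in the stem cell control, and at least 5 reads in each of 3 heterokaryon libraries. Another 5 genes that met the same limits, ANKRD37, SLC16A3, TCF7, NKD1 and PFKFB3, were left out by name. The contrast of heterokaryons with fibroblasts chose the genes, so their levels in these libraries are given as a description, without a test.

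Heterokaryons are cells that hold the nuclei of both fused parents in a shared cytoplasm, and the species difference lets reads be assigned to one nucleus or the other. Libraries were made of heterokaryons 24, 48 and 72 h after fusion, of unfused bovine fetal fibroblasts (bFF) and of unfused C57BL mouse embryonic stem cells (mESC), with 200 sorted cells and 1 library for each. All fibroblasts came from 1 male fetus of about gestation day 60 and were kept at 38.5 °C. The stem cells were kept at 37 °C over a feeder layer of irradiated mouse fibroblasts, in medium with the MEK inhibitor PD0325901 (1 µM) and the GSK3 inhibitor CHIR99021 (3 µM). After 4 h of co-culture the cells were exposed to polyethylene glycol for 2 min, and were then kept at 37 °C in stem cell medium without the inhibitors. The heterokaryons therefore differed from bFF in medium, temperature, neighbouring cells and the polyethylene glycol as well as in fusion. The effects of these cannot be told apart. They differed from mESC in the inhibitors and the polyethylene glycol as well as in fusion, and these cannot be told apart either.

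Bovine reads numbered 982769, 1331989 and 1541793 in the 24, 48 and 72 h libraries, against 2634269 in bFF. Since the bFF library was the deepest, the limit of 3 reads there is 1.14 RPM (the count over the library's bovine total, scaled to 1e6), and the minimum of 5 reads is 5.09, 3.75 and 3.24 RPM at 24, 48 and 72 h. Each group had no replicate library, so intervals below are 95% intervals that cover counting error only, and reads copied by PCR are not independent molecules. In pools of cells, fewer cells that express a gene and less RNA per cell cannot be told apart. The 8 fibroblast markers looked at (COL1A1, COL1A2, COL3A1, VIM, PDGFRA, DCN, LUM and THY1) had reads in every heterokaryon library and in bFF. COL1A1 had 3015, 2576 and 2802 RPM in heterokaryons and 4319 RPM in bFF. PDGFRA had 59.0, 67.6 and 67.5 RPM in heterokaryons and 433 RPM in bFF. THY1 had 423, 294 and 237 RPM in heterokaryons and 1017 RPM in bFF. COL1A2, COL3A1, DCN and LUM were also below bFF at each time. VIM, with 2654, 4748 and 4474 RPM in heterokaryons and 4736 RPM in bFF, was not below it at 48 h.

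Of the 48 genes, 21 had 0 reads in bFF, 6 had 2 reads and 21 had 3. The limits of the set place every ratio to bFF above 1, so intervals of these ratios show counting error and are no test of a difference. Among the 27 genes with reads in bFF, 20 had a ratio to bFF whose counting interval lay above 1 at all 3 times. For ATP8B1, CORO2A, DEPDC1B, IPMK, MYF6, SNCAIP and VPS37B the interval held 1 at some time. Together the 48 genes took 836, 603 and 671 RPM in the 24, 48 and 72 h heterokaryons, against 28.5 RPM in bFF. Most were scarce: the reads summed over the heterokaryon libraries ran from 16 to 485 per gene with a median of 31.5, and 36 genes stayed under 50 reads. The genes did not belong to one lineage. Among them were an alpha globin, 2 myogenic factors, an MHC class II chain, hormone and growth factor genes, brakes on kinase and ion channel signalling, and enzymes of DNA replication.

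**Figure D1:**
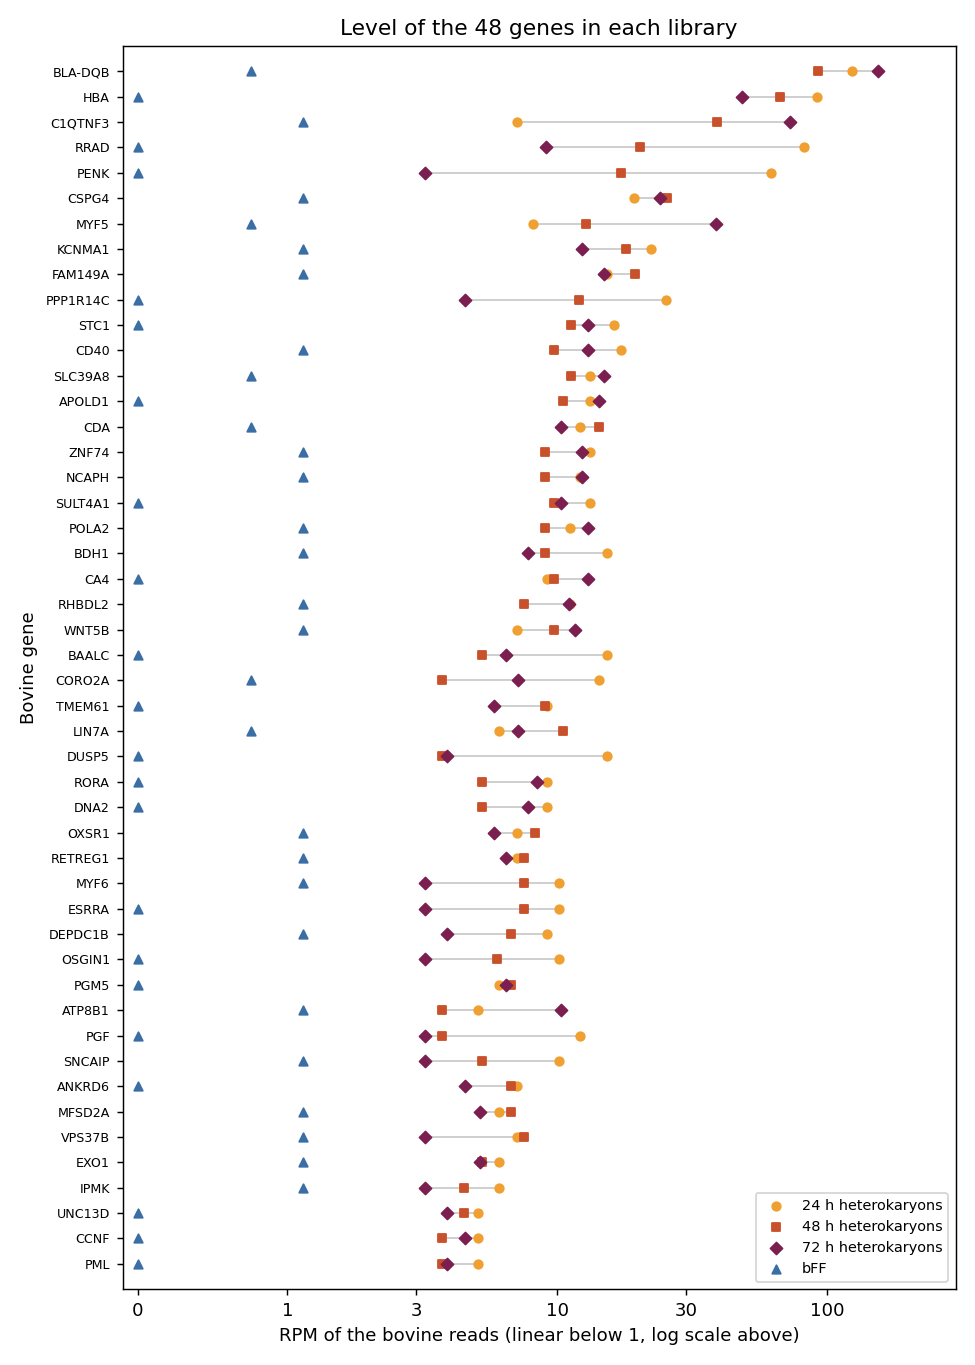
RPM of the 48 bovine genes (rows) in heterokaryons at 24 h (circles), 48 h (squares) and 72 h (diamonds) and in bFF (triangles), with a grey line over the range of the heterokaryon libraries; the axis is linear below 1 and logarithmic above. BLA-DQB and HBA stand highest, most genes lie between 3 and 30 RPM, and the widest ranges over time belong to PENK, C1QTNF3 and RRAD.

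Red blood cells carry oxygen on haemoglobin, which joins alpha and beta globin chains, and their precursors depend on factors such as GATA1 and KLF1 and on the haem enzyme ALAS2. HBA, the alpha globin gene (chromosome 25, plus strand, start 210952 in bosTau8), had 90, 89 and 75 reads in heterokaryons at 24, 48 and 72 h, against 0 in bFF. All 3 heterokaryon libraries were high, at 91.6 RPM (73.6 to 113), 66.8 RPM (53.7 to 82.2) and 48.6 RPM (38.3 to 61.0). These values were 80.4, 58.7 and 42.7 times the floor of 3 reads in the bFF library. The counting interval of 0 reads in bFF reaches 1.40 RPM, above that floor, so these ratios are not lower bounds. No beta type globin was detected beside HBA. HBB, HBG, HBE1, HBE2 and HBE4 had 0 reads in every bovine library. At 24 h the floor of 3 reads is 3.05 RPM, and the counting interval of 0 reads reaches 3.75 RPM.

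Most of the blood list had no reads either. Of 20 listed genes found, 14 had 0 reads in all heterokaryons, among them GATA1, KLF1, ALAS2 and TAL1. HBM, another alpha type globin, whose start lies 2213 bases from that of HBA, had 0, 0 and 3 reads in heterokaryons and 0 in bFF, and HBQ1, 5970 bases away, had 7, 6 and 3 reads in heterokaryons and 19 in bFF. Counts cannot separate HBA from an identical alpha globin copy that the table does not list. EPB42, a red cell membrane protein gene, was the 1 other list member abundant enough for the edgeR test of 3 heterokaryon libraries against bFF, with 36, 28 and 17 reads in heterokaryons and 24 in bFF. It did not pass (log2 fold change 1.37 ± 0.66, SE, edgeR adjusted p = 0.230), and 30 of its reads were listed as bovine in the mouse mESC library, and the part of wrongly assigned reads in its level was not tested.

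MYF5 and MYF6 belong to the myogenic basic helix-loop-helix factors, which commit cells to skeletal muscle in the embryo together with MYOD1 and MYOG. MYF5 had 8, 17 and 60 reads in heterokaryons at 24, 48 and 72 h, against 2 in bFF. It was higher at each later time, with 8.14, 12.8 and 38.9 RPM (29.7 to 50.1 at 72 h) in heterokaryons and 0.759 RPM in bFF. Its ratio to bFF was 10.7 (2.14 to 104), 16.8 (3.99 to 150) and 51.3 (13.6 to 433). MYF6 had no such increase, with 10, 10 and 5 reads in heterokaryons and 3 in bFF, or 10.2, 7.51 and 3.24 RPM in heterokaryons and 1.14 RPM in bFF. At 72 h its ratio to bFF was 2.85, with a counting interval that holds 1 (0.554 to 18.3). Its 72 to 24 h ratio of 0.319 also had an interval that holds 1 (0.0855 to 1.02).

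Other muscle genes had few reads or none. MYOD1, MYOG, ACTA1 and CDH15 had 0 reads in every bovine library, and PAX3, an upstream factor, had 0 reads in heterokaryons and 2 in bFF. Of 27 listed muscle genes in the table, 14 had no heterokaryon reads. Of the 2 non-members that could be tested, the cardiac actin gene ACTC1 fell (3, 8 and 11 reads in heterokaryons and 190 in bFF, log2 fold change -3.55 ± 0.48, edgeR adjusted p = 0.00109) and the troponin gene TNNC1 did not pass (0, 0 and 5 reads in heterokaryons and 31 in bFF, edgeR adjusted p = 0.193). Both genes reached the test's minimum of 10 CPM only in bFF (72.1 and 11.8 RPM there), so they could hardly have been called higher. Of all 7375 bovine genes tested, 4.77% were called lower and 4.37% higher.

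The muscle factors were neighbours of another gene of the set. On bovine chromosome 5 (bosTau8) MYF6 starts at 10330469 and MYF5 at 10339425, both on the plus strand, 8956 bases apart, and LIN7A, a polarity scaffold gene on the minus strand, has its listed start at 10409387, 69962 bases from that of MYF5. LIN7A had 6, 14 and 11 reads in heterokaryons and 2 in bFF. Within 500000 bases of MYF5 the table lists 5 genes, and the other two did not meet the limits: PTPRQ had 7, 0 and 5 reads in heterokaryons and 2 in bFF, and ACSS3 had 8, 8 and 0 in heterokaryons and 40 in bFF. The 3 pairs formed by MYF5, MYF6 and LIN7A were the only pairs of the 48 genes with starts within 100000 bases of each other, a pattern noticed after the values were seen. Chromosome 5 held 6 of the 48 genes (12.5%) and 5.90% of all listed names.

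MHC class II molecules pair an alpha with a beta chain to show peptides to T cells, and are normally made by antigen-presenting cells under the regulator CIITA, with the invariant chain CD74 as their companion. BLA-DQB, a DQ beta chain gene on chromosome 23 (minus strand, start 25855145 in bosTau8), whose RefSeq transcript now carries the symbol BOLA-DQB1, had the most reads of the set. It had 122, 124 and 239 reads in heterokaryons at 24, 48 and 72 h, against 2 in bFF, or 124, 93.1 and 155 RPM in heterokaryons and 0.759 RPM in bFF. Its ratios to bFF, which the limits of the set place above 1, were 164 (44.3 to 1365), 123 (33.2 to 1024) and 204 (55.9 to 1696).

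Among list genes in the table, no DQ or DR alpha chain gene and no invariant chain was detected beside BLA-DQB. The DQ alpha gene BOLA-DQA1 and the regulator CIITA are on the list but were not found in the table under these names, so their levels are not known. CD74, BOLA-DRA, BOLA-DRB3, BOLA-DQA2 and BOLA-DQA5 had 0 reads in every bovine library, and 10 of the 14 class II list genes in the table had none in heterokaryons. BOLA-DQB, a second DQ beta entry with which BLA-DQB may share reads, had 0, 3 and 0 reads in heterokaryons and 2 in bFF. BOLA-DMA, the alpha chain of the DM molecule that helps load peptides, was present in both, with 14, 33 and 30 reads in heterokaryons and 60 in bFF (log2 fold change -0.10 ± 0.51, edgeR adjusted p = 0.939). Of general leukocyte genes, 12 of 23 in the table had 0 heterokaryon reads, PTPRC (CD45) among them, and none had 5 reads in each heterokaryon library. CD3D, a T cell receptor subunit gene, had 12, 3 and 11 reads in heterokaryons and 0 in bFF (edgeR adjusted p = 0.107), and the coronin gene CORO1A had 3, 7 and 6 in heterokaryons and 0 in bFF. CD3G, another T cell receptor subunit gene that is not on the list, had 20, 13 and 13 reads in heterokaryons and 4 in bFF, just past the bFF limit of the set.

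**Figure D2:**
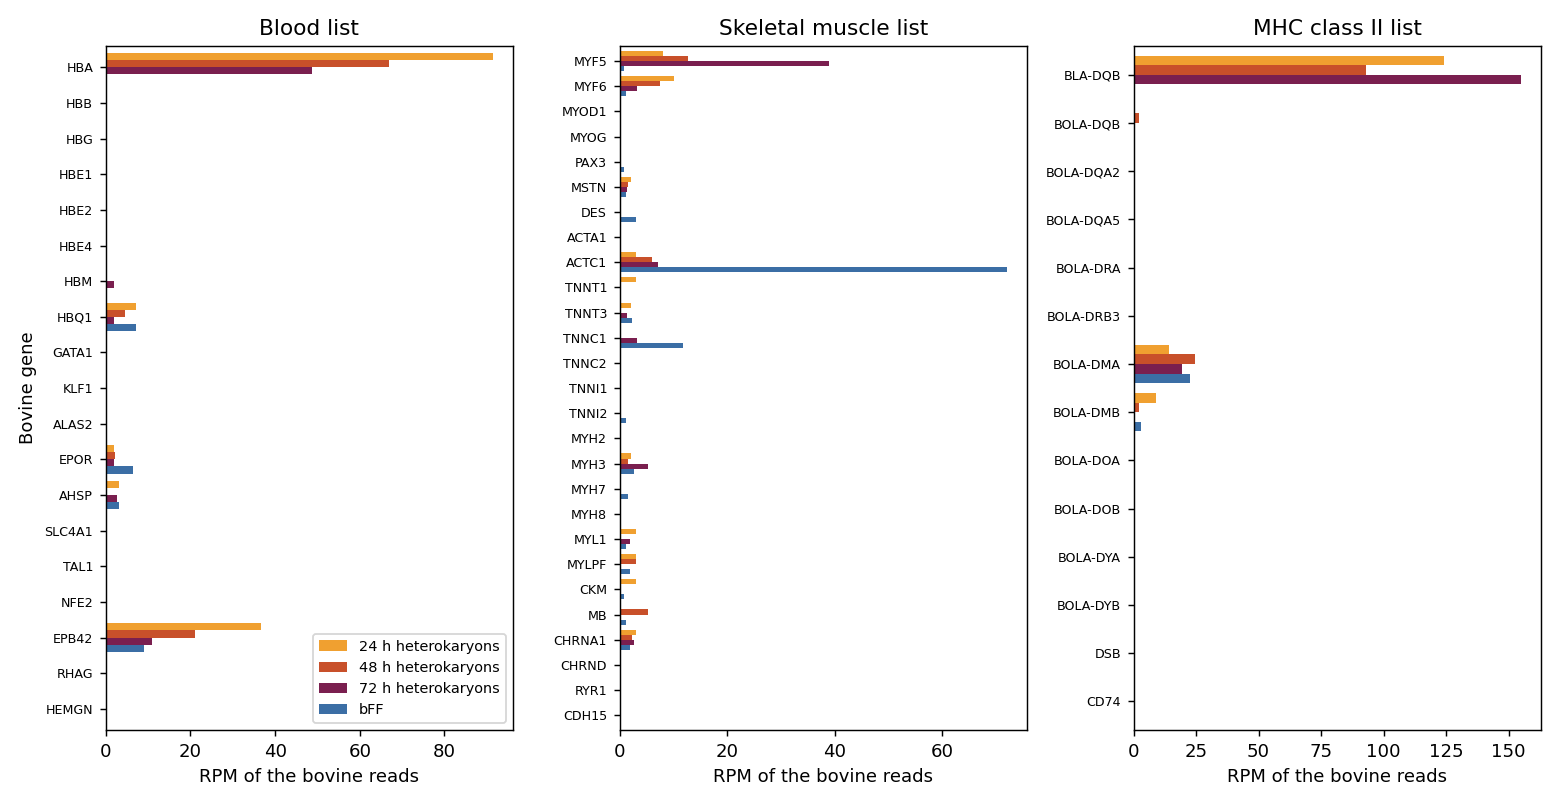
RPM of bovine genes of the blood, skeletal muscle and MHC class II lists (rows) in heterokaryons at 24, 48 and 72 h and in bFF (bars from 0, 1 library each, no error bars). HBA, MYF5 and BLA-DQB stand out in heterokaryons, MYF6 lies among the low genes at 72 h, and most other genes of the list have no heterokaryon reads; EPB42 and BOLA-DMA have reads in heterokaryons and bFF, and ACTC1 is highest in bFF.

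Another 2 members act in the immune system. CD40, a receptor of antigen-presenting cells that fibroblasts can also carry, had 17, 13 and 20 reads in heterokaryons and 3 in bFF. UNC13D, which primes secretory granules for release, was near the lower limit with 5, 6 and 6 reads in heterokaryons and 0 in bFF.

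Among the members 5 encode secreted signals, and they moved in different directions over time. PENK, the precursor of the enkephalin opioid peptides, had 61, 23 and 5 reads in heterokaryons at 24, 48 and 72 h, against 0 in bFF. This was 62.1 RPM at 24 h (47.5 to 79.7) and 3.24 RPM at 72 h (1.05 to 7.57), so most of the signal was seen at the first time. C1QTNF3, a secreted C1q and TNF related protein, ran the other way with 7, 52 and 113 reads in heterokaryons and 3 in bFF, or 7.12, 39.0 and 73.3 RPM in heterokaryons. STC1, the glycoprotein hormone stanniocalcin, was steady with 16, 15 and 20 reads in heterokaryons and 0 in bFF. PGF, a placental growth factor of the VEGF family, had 12, 5 and 5 reads in heterokaryons and 0 in bFF, and the ligand gene WNT5B had 7, 13 and 18 in heterokaryons and 3 in bFF.

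Another 6 members restrain or relay signals inside the cell, and all of them had fewer RPM at 72 than at 24 h, as had 61.1% of the bovine genes within the read range of the set. The same held for all members of the enzyme, nuclear and little known groups. RRAD, a small GTPase that inhibits voltage-gated calcium channels, had 81, 27 and 14 reads in heterokaryons and 0 in bFF, or 82.4, 20.3 and 9.08 RPM in heterokaryons. PPP1R14C, an inhibitor of protein phosphatase 1, had 25, 16 and 7 reads in heterokaryons and 0 in bFF. DUSP5, a nuclear phosphatase that inactivates ERK, had 15, 5 and 6 reads in heterokaryons and 0 in bFF. The kinase gene OXSR1, the WNT pathway gene ANKRD6 and the inositol polyphosphate kinase gene IPMK had 5 to 11 reads in each heterokaryon library. In bFF they had 3, 0 and 3 reads, and the intervals of their 72 to 24 h ratios hold 1.

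A further 6 members work in DNA replication, repair or cell division: POLA2, a subunit of the primase complex that starts new strands, DNA2 and EXO1, nucleases that process DNA ends, NCAPH, a condensin subunit, CCNF, the F-box protein cyclin F, and DEPDC1B, which acts in mitotic entry. Their reads in single heterokaryon libraries ran from 5 to 20. POLA2 had 11, 12 and 20 in heterokaryons and 3 in bFF, and NCAPH had 12, 12 and 19 in heterokaryons and 3 in bFF. DNA2 and CCNF had 0 reads in bFF and the other four had 3. Summed over the 6 genes there were 52, 52 and 72 reads in heterokaryons and 12 in bFF.

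The remaining members fall into transport, surface, nuclear and metabolic roles. Among transporters and channels, the large-conductance potassium channel gene KCNMA1 had 22, 24 and 19 reads in heterokaryons and 3 in bFF. The zinc transporter gene SLC39A8 had 13, 15 and 23 reads in heterokaryons and 2 in bFF, and the membrane carbonic anhydrase gene CA4 had 9, 13 and 20 in heterokaryons and 0 in bFF. The lipid carrier gene MFSD2A and the phospholipid flippase gene ATP8B1 stayed at 5 to 16 reads per heterokaryon library, with 3 in bFF. At the cell surface, CSPG4, the NG2 proteoglycan of pericytes and progenitor cells, had 19, 34 and 37 reads in heterokaryons and 3 in bFF. APOLD1, an endothelial early response gene, had 13, 14 and 22 reads in heterokaryons and 0 in bFF. The rhomboid protease gene RHBDL2 (11, 10 and 17 in heterokaryons, 3 in bFF) and the junction protein gene PGM5 (6, 9 and 10 in heterokaryons, 0 in bFF) stand beside LIN7A in this group.

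Nuclear members were the nuclear receptor genes RORA (9, 7 and 13 reads in heterokaryons, 0 in bFF) and ESRRA (10, 10 and 5 in heterokaryons, 0 in bFF), the nuclear body gene PML and the zinc finger gene ZNF74. Enzymes were the cytidine deaminase gene CDA, with 12, 19 and 16 reads in heterokaryons and 2 in bFF, the sulfotransferase gene SULT4A1 (13, 13 and 16 in heterokaryons, 0 in bFF) and the ketone body enzyme gene BDH1 (15, 12 and 12 in heterokaryons, 3 in bFF). VPS37B of the ESCRT machinery, the receptor of endoplasmic reticulum autophagy RETREG1 and the coronin gene CORO2A had 5 to 14 reads per heterokaryon library. In bFF they had 3, 3 and 2 reads. Of 5 members with other or little known roles, FAM149A had 15, 26 and 23 reads in heterokaryons and 3 in bFF, and BAALC, TMEM61, SNCAIP and OSGIN1 had 5 to 15 per heterokaryon library.

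The next comparison asked how the genes changed between 24 and 72 h, which the choice of genes used only through the minimum of 5 reads at each time. On log2(RPM + 1), 2 of 48 genes were at least 4-fold higher at 72 than at 24 h and 3 were at least 4-fold lower, with no replicate check. Over all 7179 bovine genes with 5 reads or more in each heterokaryon library, 0.293% were that much higher and 1.09% that much lower, and over the 5705 of these within the read range of the set the shares were 0.245% and 1.26%. The 2 higher genes were C1QTNF3, with 10.3 times the 24 h RPM at 72 h (counting interval 4.83 to 26.2), and MYF5, with 4.78 times (2.28 to 11.6). The 3 lower ones were PENK at 0.0522 of its 24 h RPM (0.0164 to 0.129), RRAD at 0.110 (0.0577 to 0.196) and PPP1R14C at 0.178 (0.0652 to 0.424). Between 24 and 48 h, C1QTNF3 was past the same limit upward and 0 of 48 genes downward, beside 0.195% and 0.724% of all bovine genes. Between 48 and 72 h, 0 of 48 were past it upward and PENK downward, beside 0.0418% and 0.125%.

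Smaller changes lay mostly within counting error. For 40 genes the counting interval of the 72 to 24 h ratio held 1. Besides the genes named above, DUSP5 (ratio 0.255, 0.0811 to 0.695), PGF (0.266, 0.0733 to 0.810) and HBA (0.531, 0.386 to 0.730) had intervals below 1. In 35 of 48 genes (72.9%) the RPM at 72 h was below that at 24 h, against 61.1% of the genes within the same read range. The minimum of 5 reads asks for more RPM in the shallower 24 h library than at 72 h, in the set and in the genes beside it.

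**Figure D3:**
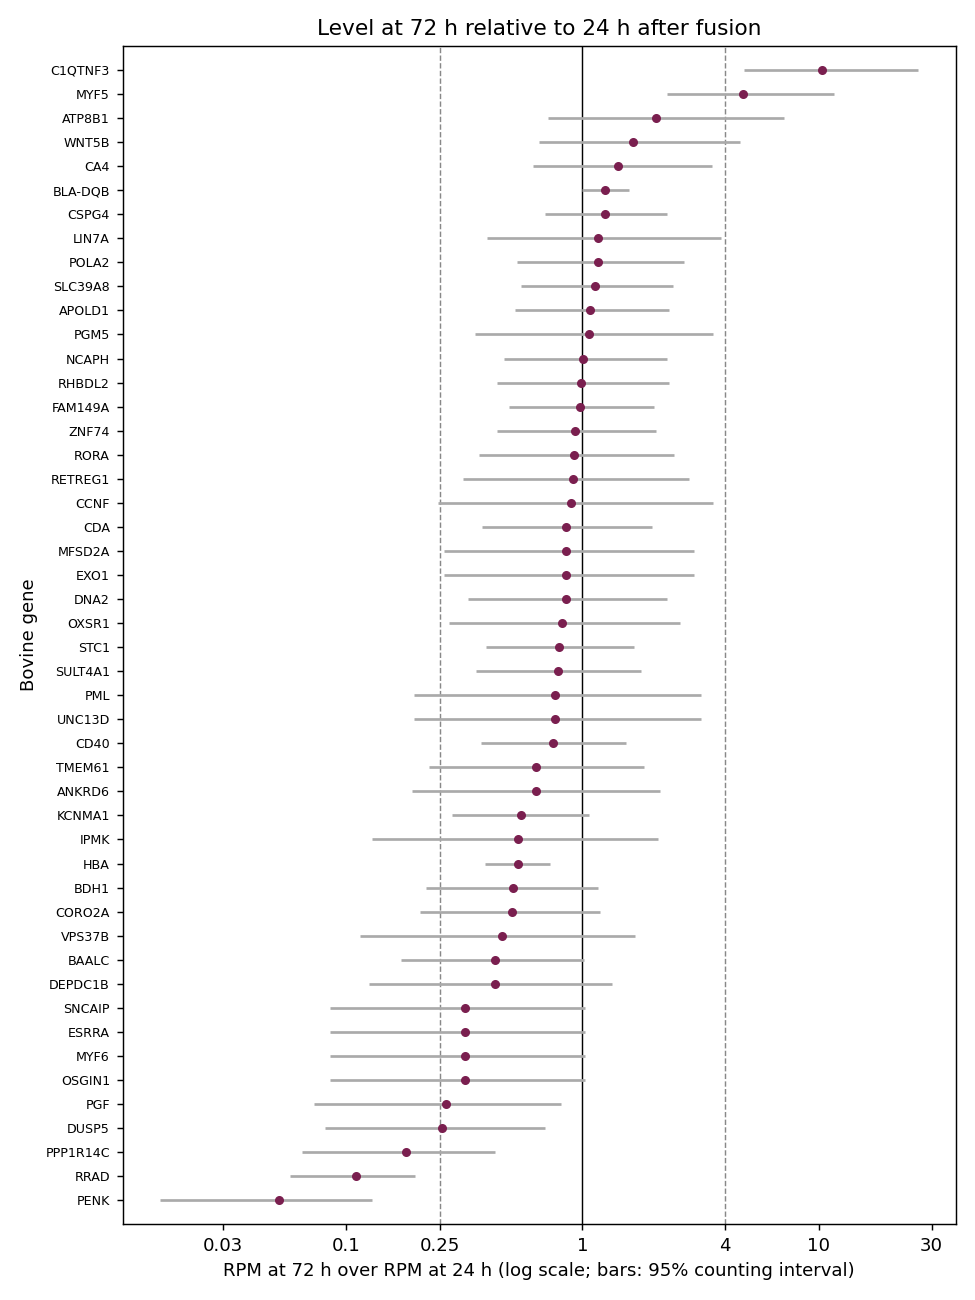
Ratio of RPM at 72 h to RPM at 24 h after fusion for the 48 bovine genes, with 95% counting intervals (bars) on a log axis; dashed lines mark 4-fold lower and 4-fold higher. C1QTNF3 (10.3) and MYF5 (4.78) stand at the top and PENK (0.0522), RRAD (0.110) and PPP1R14C (0.178) at the bottom, while 40 intervals cross 1.

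The mouse table, which took no part in choosing the genes, shows whether the stem cell nucleus expressed the same genes. Mouse counterparts were found for 46 of the 48 genes, by the same symbol or, for HBA, BLA-DQB, CA4 and RETREG1, by their mouse names. In mESC 17 counterparts had 0 reads, 15 had fewer than 20 and 14 had 20 or more. Of the silent ones 10 also had 0 reads in all heterokaryons, those of MYF5, MYF6, C1QTNF3, CSPG4, PGM5, LIN7A, CA4, ATP8B1, OSGIN1 and SNCAIP. The mouse alpha globin genes together had 2, 4 and 0 reads in heterokaryons and 0 in mESC. The counterpart of BLA-DQB was not silent: H2-Ab1 had 52, 50 and 40 reads in heterokaryons and 40 in mESC (log2 fold change 1.00 ± 0.42, edgeR adjusted p = 0.253).

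All 6 counterparts of the replication and division genes were expressed by the stem cells. Mouse Ccnf had 140, 121 and 161 reads in heterokaryons and 529 in mESC, Ncaph 135, 101 and 127 in heterokaryons and 368 in mESC, Pola2 193, 103 and 154 in heterokaryons and 358 in mESC, and Exo1 125, 72 and 123 in heterokaryons and 232 in mESC. Tested across the mouse table, 13 counterpart genes were abundant enough and 0 passed edgeR in either direction or DESeq2. At an unadjusted edgeR p under 0.05 there were 5 of 13, against 16.4% of all 8855 mouse genes, of which 0.565% were called higher and 0.407% lower. Ccnf came closest (log2 fold change -1.14 ± 0.26, edgeR adjusted p = 0.0529) and passed when either the 24 h or the 72 h library was left out (edgeR adjusted p = 0.00340 and 0.00490). The median log2 fold change was -0.38 for the 13 counterparts and -0.09 for all mouse genes tested.

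**Figure D4:**
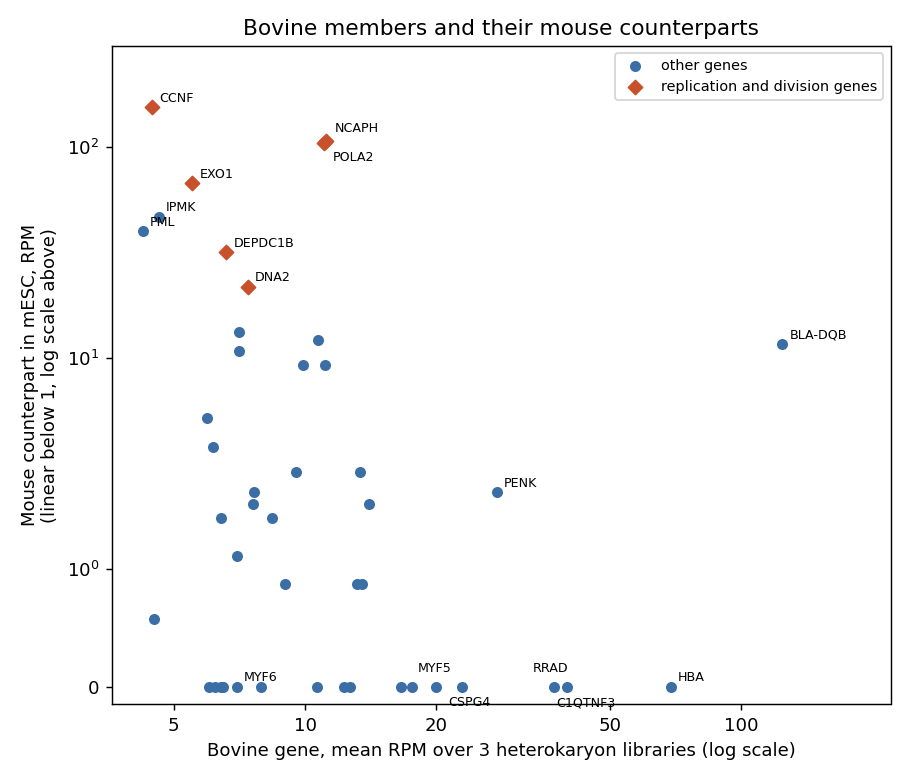
Mean RPM of each bovine gene over the 3 heterokaryon libraries (x, log scale) against the RPM of its mouse counterpart in mESC (y, linear below 1 and log above) for the 46 matched genes. The replication and division genes (diamonds) lie high on the mouse axis, while HBA, MYF5, MYF6, C1QTNF3, RRAD and CSPG4 lie at 0.

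These mouse reads also limit how many bovine reads could be mouse reads in the wrong table. With 0 reads listed as bovine in mESC, which the choice of genes required, the limit was set at the floor of 3 reads there. Scaled to the mouse reads of each heterokaryon library, this floor is 2.11, 1.51 and 1.60 reads per gene at 24, 48 and 72 h. The scaling assumes that the mouse gene kept its level. The counting interval of 0 reads reaches above 3 reads, so the limit is not an upper bound. Over all genes, 61069 reads on 2360 names were listed as bovine in mESC. For the 14 genes with 20 or more mouse reads in mESC the limit was set per gene, as 3 reads over its mESC reads times its mouse reads in the heterokaryon library. It was 3.90 reads at 24 h for BLA-DQB, against 122 observed, and 0.794 for CCNF, against 5. Among these 14 genes the limit came closest to the observed reads for OXSR1, at 5.35 against 7 at 24 h. For counterparts with fewer than 20 mESC reads the same formula rests on very few reads, and it reached the observed count for 2 genes: the limit was 17.0 reads at 24 h for STC1, against 16 observed, and 31.5 for UNC13D, against 5. It was 9 against 12 for PGF and 7.29 against 9 for RORA at 24 h, and 4.50 against 5 for ESRRA at 72 h. Another 7 counterparts had 0 reads in mESC and some in heterokaryons, such as Cda with 21, 4 and 2 in heterokaryons, and gave no limit. The part of wrongly assigned reads in these genes was not tested.

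Genes of other lineages and functions, listed with earlier results of these data known, were tested as well where they were not in the set. Of those named below, TUBB3, FGB, ALPL, IL6, CXCL2, DSG2 and SLC2A1 reached the minimum of 10 CPM only in heterokaryons. CXCL10 reached it only in bFF. The direction of these calls was thus largely set by the filter. In 6 of 13 lists (blood, MHC class II, leukocyte, endothelial, germline and trophoblast) 8 genes were tested and 0 passed edgeR or DESeq2, and 4 had an unadjusted edgeR p under 0.05. The neural list had 2 of 4 tested genes higher: the neuronal tubulin gene TUBB3 (45, 52 and 75 reads in heterokaryons and 26 in bFF, log2 fold change 2.27 ± 0.46, edgeR adjusted p = 0.0102) and the filament gene NES, with 96, 175 and 239 reads in heterokaryons and 144 in bFF (edgeR adjusted p = 0.0478). The call of NES was lost when the 48 or the 72 h library was left out (edgeR adjusted p = 0.111 and 0.0657). The NES call was also lost when library totals alone set the scale, without a filter on low counts, and at a filter of 50 CPM. SOX2, PAX6, SYP and GFAP had 0 reads in every bovine library. In the endoderm and liver list FGB, a fibrinogen chain, had 134, 99 and 80 reads in heterokaryons and 3 in bFF, but also 131 in mESC, which kept it out of the set. APOA1, an apolipoprotein gene of the same list, fell (38, 111 and 107 reads in heterokaryons and 529 in bFF, log2 fold change -1.52 ± 0.38, edgeR adjusted p = 0.0268). In the cartilage and bone list the alkaline phosphatase gene ALPL rose, with 3, 21 and 66 reads in heterokaryons and 0 in bFF (edgeR adjusted p = 0.0247). Its call was lost when the 72 h library was left out (edgeR adjusted p = 0.0584), and it missed the set by its 24 h count. The other gene tested there, the bone matrix protein gene SPP1, fell (142, 128 and 53 reads in heterokaryons and 1264 in bFF, log2 fold change -2.33 ± 0.45, edgeR adjusted p = 0.00794).

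Of 7 tested cytokine genes 2 rose and 1 fell. IL6, an inflammatory cytokine gene, had 96, 106 and 208 reads in heterokaryons and 9 in bFF (log2 fold change 5.01 ± 0.57, edgeR adjusted p = 0.000273). The chemokine gene CXCL2 had 493, 46 and 78 reads in heterokaryons and 8 in bFF (edgeR adjusted p = 0.0302), a call lost when library totals alone set the scale (edgeR adjusted p = 0.0551) or at a filter of 50 CPM (edgeR adjusted p = 0.0613). CXCL10, an interferon-induced chemokine gene, had 3, 0 and 3 reads in heterokaryons and 407 in bFF (edgeR adjusted p = 4.75e-05). Of 8 tested epithelial genes the desmosomal cadherin gene DSG2 rose (64, 54 and 45 reads in heterokaryons and 21 in bFF, edgeR adjusted p = 0.0117), and 3 keratin genes fell. KRT8 had 612, 760 and 531 reads in heterokaryons and 4060 in bFF, KRT18 had 64, 76 and 29 in heterokaryons and 831 in bFF, and KRT19 had 503, 674 and 423 in heterokaryons and 3109 in bFF (log2 fold changes -1.50, -2.68 and -1.36).

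Low oxygen genes were the list with most calls, and also the list with most tested genes (17, against 8 or fewer in each other list). By share the cartilage and bone list had more, with both tested genes called. Over all bovine genes tested, 4.37% were called higher and 4.77% lower. Of 17 tested genes 10 rose and 1 fell (median log2 fold change 1.55, against -0.03 for all tested bovine genes), among them the mitophagy receptor gene BNIP3 (945, 1546 and 2315 reads in heterokaryons and 125 in bFF, log2 fold change 4.79 ± 0.48, edgeR adjusted p = 0.000124) and the glucose transporter gene SLC2A1 (133, 179 and 243 in heterokaryons and 13 in bFF). ERO1A, an oxidase gene of the endoplasmic reticulum (385, 332 and 593 in heterokaryons and 115 in bFF), and the repressor gene BHLHE40 (208, 317 and 414 in heterokaryons and 216 in bFF) rose too. LOX, which crosslinks collagen, fell (251, 266 and 301 reads in heterokaryons and 1484 in bFF, edgeR adjusted p = 0.0118), a call lost when the 48 h library was left out (edgeR adjusted p = 0.0737). Each of these 17 genes had 8 reads or more in bFF and so lay outside the limits of the set. The omitted genes ANKRD37, SLC16A3 and PFKFB3, which low oxygen also induces, did meet them.

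The set was part of a wider group of genes with few or no reads in the controls and some in heterokaryons. Of 4738 genes within both control limits, 1223 had reads in some heterokaryon library. At least 5 reads were reached at 24 h alone by 120 genes, at 48 h alone by 51 and at 72 h alone by 49. Exactly 2 of the libraries reached it for 76 genes (25 at 24 and 48 h, 30 at 24 and 72 h, 21 at 48 and 72 h). All 3 reached it for 53 genes, the named omissions included. At the lower limit, 14 of the 48 genes had a lowest heterokaryon count of 5, while 20 genes just outside had 4, such as SNAI1 (4, 6 and 5 reads in heterokaryons, 3 in bFF) and LYN (4, 6 and 7 in heterokaryons, 0 in bFF). At the bFF limit 21 members had 3 reads and 19 genes just outside had 4, such as UCP2 (14, 15 and 9 in heterokaryons, 4 in bFF).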

How the data were processed

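The authors deposited a table for each species, bovine and mouse, that gives every RefSeq transcript a whole-number read count in each library and an RPM value, per the file headers. Each deposited RPM equalled its count over the column total. PolyA RNA was amplified to cDNA by SMART-Seq v4 in 14 cycles, per the labels' protocols. The submitters' processing notes list the builds bosTau8, GRCm38 and mm10. The aligner, the counter, strand use and the rule that separated the species are not stated in what was used here. A value of 1 never occurs. The mouse totals row was dropped. Transcripts were summed by name (14234 bovine transcripts to 13922 names). Names turned into dates (22 bovine) were kept as they are, and none met the limits. Starts are counted from 1. RefSeq numbers of all 48 genes matched gene names of the assembly ARS-UCD2.0, used for names only.

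The 3 heterokaryon libraries, which share a treatment label, were tested against their control with edgeR 4.0.16 in R 4.3.3 (quasi-likelihood test, TMM over all genes, then a minimum of 10 CPM in 1 or more libraries, calls at a Benjamini-Hochberg adjusted p under 0.05). A gene that reaches 10 CPM only in the control, or only in heterokaryons, can hardly be called in the other direction. The p-values rest on the spread among libraries of different times, and assume that a single control library varies as much. The test was also run on simulated data in which control and heterokaryon libraries had the same spread, so those data cannot check that assumption. DESeq2 1.42.0 was the alternative. Intervals are exact Poisson intervals, and exact conditional ones for ratios. Alternatives changed the limits of the set, the scaling, the filter, the pseudocount, the fold limit and the libraries used.

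The genes, lists and functional groups were chosen with earlier results of these data known. The rule for names took HBA, MYF5 and BLA-DQB, the 15 genes with the highest mean RPM, the 6 highest and 6 lowest 72 to 24 h ratios among genes with 20 reads or more at either time, all set members on a list, up to 4 called genes per list, and up to 6 mouse counterparts with most mESC reads. Other genes were named after their values were seen. A gene of the blood list is counted but not reported here by name.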

Additional observations from a re-analysis of the deposited data

How the results depend on the processing

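The number of genes in the set depends on its limits. It was 21 with 0 reads allowed in bFF, 141 with up to 8, 120 with at least 3 reads in each heterokaryon library, 17 with at least 10 reads and 31 with at least 5 RPM. Leaving out 1 heterokaryon library gave 69 to 77 genes, all 48 among them, while dropping the mESC limit (56) or counting single transcripts (49) changed it little. At a 2-fold limit 11 genes were lower at 72 than at 24 h, against 3 at 4-fold, and 2 were higher at both limits. Of the mouse counterparts 1 gene, Ccnf, was called lower without a filter on low counts, and 0 to 1 when 1 heterokaryon library was left out. Mouse Pml had a log2 fold change of 0.05, and of -0.017 to 0.171 when 1 heterokaryon library was left out, below 0 without the 72 h library, and passed in none of these fits. Calls among bovine list genes ran from 12 to 23 higher and 7 to 11 lower over all alternatives, against 17 and 8. No paired analysis was possible because each group has 1 library. Counts of motifs in promoters, which were planned, were not run, since no bovine promoter sequence was used here. Depth limits the set, since 36 of its genes rest on under 50 heterokaryon reads.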
